A study of Mus musculus with 7 samples.

Results

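The nuclear-encoded subunits of the oxidative phosphorylation machinery were followed in RNA-seq of embryonic mouse cortical neurons, 4 libraries from KAT7 mutant mice and 3 from wild type mice. Members were the rows of the count table whose Entrez identifier has a mouse symbol that begins with Nduf and one of the letters a, b, c, s or v and a digit, is Sdha, Sdhb, Sdhc or Sdhd, or begins with Uqcr, with Cox and a digit of 4 to 8, or with Atp5. Of 26286 genes in the table, 90 matched and 86 had at least 1 count. By symbol, 42 of these 86 members belong to complex I, 4 to complex II, 7 to complex III, 15 to complex IV and 18 to complex V, and 78 had enough counts to be tested. The rule itself uses only the symbol patterns and the need for at least 1 count. It was set, however, with earlier results of these data known. The annotation gives 4 of the tested members as pseudogenes, Ndufa11b, Ndufs5-ps and Ndufs6b (counted with complex I) and Atp5c1-ps (counted with complex V). Without them 74 tested members remain, of which 5 were called higher and 3 lower in KAT7 mutant neurons by edgeR, where 13.1% and 15.8% of all tested genes were.

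The KAT7 mutant mice and the wild type mice were all male C57BL/6 embryos at E16.5, and polyA RNA from the brain, labelled cortical neurons, was sequenced. KAT7, one of the MYST enzymes, acetylates histones. The sources used here do not say which Kat7 allele the mutants carry, whether a Cre driver was used or how the neurons were obtained. The design text gives the samples as separate mice, so the replicate spread is taken as that between animals.

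Oxidative phosphorylation takes place in the inner mitochondrial membrane. Complexes I and II pass electrons from NADH and succinate to coenzyme Q, complex III passes them to cytochrome c, and complex IV to oxygen. Complexes I, III and IV pump protons, and complex V, the ATP synthase, uses the proton gradient to make ATP. Mature neurons depend on this pathway for most of their ATP. A small number of subunits are encoded in mitochondrial DNA, and 0 of those 13 genes are in the count table, so they are not analysed here.

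The promoters of 5 members are shown first, because these genes carry the largest called falls or are the most abundant of their complex, and because respiratory genes are known targets of a few DNA-binding factors. Each line gives the 150 bases upstream of the RefSeq gene start on the gene's own strand (build GRCm38.p6), 5′ to 3′. Capitals mark the NRF1 core motif GCGCATGCG or the GC box GGGCGG, on either strand. Where the NRF1 motif occurs on both strands, the 2 matches overlap and form 1 palindrome.
Ndufv3, chr17:31519965-31520114, plus strand: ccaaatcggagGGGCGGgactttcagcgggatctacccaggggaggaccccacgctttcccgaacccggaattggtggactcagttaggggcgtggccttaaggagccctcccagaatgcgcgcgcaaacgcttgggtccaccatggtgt
Atp5g2, chr15:102671048-102671197, minus strand: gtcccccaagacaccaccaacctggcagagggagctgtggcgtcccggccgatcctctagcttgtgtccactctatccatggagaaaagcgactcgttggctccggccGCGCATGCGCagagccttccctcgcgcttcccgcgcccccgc
Atp5k, chr5:108434400-108434549, minus strand: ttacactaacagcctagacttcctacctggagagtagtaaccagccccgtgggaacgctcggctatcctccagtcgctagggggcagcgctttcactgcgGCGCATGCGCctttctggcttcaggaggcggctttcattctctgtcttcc
Sdhb, chr4:140961121-140961270, plus strand: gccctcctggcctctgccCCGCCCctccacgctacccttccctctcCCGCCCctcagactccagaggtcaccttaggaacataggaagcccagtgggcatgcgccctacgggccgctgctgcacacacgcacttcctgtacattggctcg
Atp5b, chr10:128083157-128083306, plus strand: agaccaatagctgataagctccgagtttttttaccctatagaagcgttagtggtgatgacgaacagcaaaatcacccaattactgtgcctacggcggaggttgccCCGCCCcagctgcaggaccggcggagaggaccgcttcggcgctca
The promoters of Atp5g2 and Atp5k hold the NRF1 motif in these bases, and those of Ndufv3, Sdhb and Atp5b hold the GC box.

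Of the 86 members, 66 have a promoter in the RefSeq table, taken as 250 bases before and 50 bases after the gene start, and 5 motifs were searched on both strands, with overlaps counted for each. The NRF1 motif GCGCATGCG was in 7 of the 66 (10.6%), against 1.81% of all 27025 promoters. The ETS motif CCGGAAG, bound by GABP, was in 15 (22.7%), against 9.12% of all promoters. The YY1 motif AAGATGGCG was in 6 (9.09%), against 1.49%, and the ERR motif TCAAGGTCA in 2 (3.03%), against 0.407%. The GC box GGGCGG was in 27 (40.9%), against 35.9% of all promoters and 46.3% of the 17492 promoters of protein-coding genes. Of those 17492 promoters, 2.41% held the NRF1 motif, 11.9% the ETS motif, 1.94% the YY1 motif and 0.332% the ERR motif. The 7 members with the NRF1 motif were Ndufa8, Ndufa11, Uqcrc1, Cox6a1, Atp5l, Atp5g2 and Atp5k. Such matches are a description of the sequence and show no binding.

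Libraries held 8272487 to 8730911 counts in KAT7 mutant mice and 8354636 to 8813060 counts in wild type mice. Kat7 had 3, 4, 3 and 10 counts in the KAT7 mutant libraries, against 869, 848 and 854 in the wild type libraries, a log2 fold change of -7.35 ± 0.15 (SE, edgeR quasi-likelihood test, adjusted p = 8.18e-18). KAT7 mutant replicate 1 stood apart from the other libraries on the second principal component of all genes, at 20.98, with the others between -9.16 and 2.36. The result for each member is therefore also given without that library wherever its call ends.

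The median tested member had 40.2 CPM over all libraries, against 24.6 CPM for all tested genes, where CPM are counts scaled to a common library total. On the scale of CPM per kilobase of gene length, the tested members of complex IV had a median level of 115.7 in KAT7 mutant and 111.6 in wild type neurons. In KAT7 mutant and wild type neurons in turn, the median was 83.9 and 77.3 CPM per kilobase for complex III. In the same order it was 66.4 and 76.0 for complex V, 49.9 and 51.5 for complex II, and 46.2 and 42.4 for complex I. These medians were taken in each genotype apart, so different members can supply the 2 values, as Atp5k and Atp5md do in complex V. The median log2 fold changes per member were -0.06, 0.03, -0.01, -0.03 and -0.02 for complexes IV, III, V, II and I. Atp5b, the catalytic beta subunit of the ATP synthase, was the most abundant member per length at 563 CPM per kilobase in KAT7 mutant and 514 in wild type neurons. All members together took 0.534% to 0.572% of the counts in KAT7 mutant libraries and 0.550% to 0.566% in wild type libraries, and these ranges overlap.

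**Figure D1:**
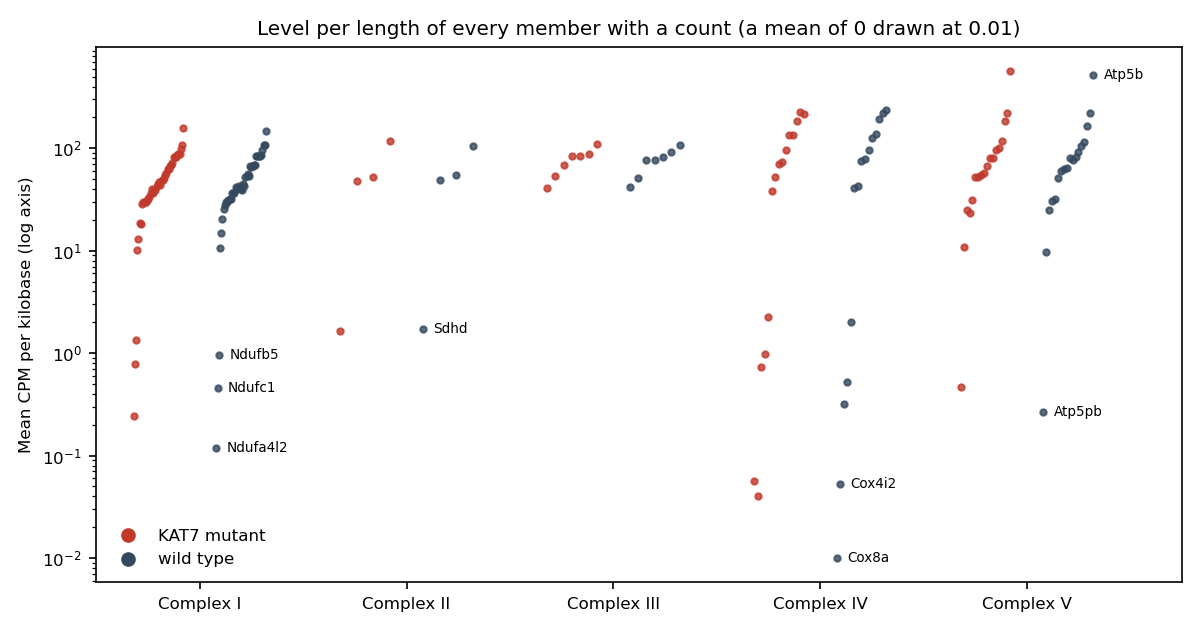
Mean level per length of each of the 86 members, in CPM per kilobase on a log axis, by complex, with KAT7 mutant on the left and wild type on the right. Most members lie above 10 CPM per kilobase in both genotypes, and a few, among them Sdhd, Ndufb5, Ndufc1, Atp5pb and Cox8a, lie far below the rest of their complex.

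Some subunits that cells with mitochondria need were nearly without counts in both genotypes. Cox8a, the ubiquitous form of a complex IV subunit, had 1 count in all 7 libraries, and Uqcr11, a complex III subunit, had 0. Sdhd, which anchors complex II in the membrane, had 16, 20, 16 and 20 counts in KAT7 mutant libraries and 27, 11 and 19 in wild type libraries. Ndufb5, Ndufc1 and Atp5pb had 0 to 16 counts in each library. The cause of these low counts was not tested. Sequence shared with other genes covered 38.7% of the 50-base words of Atp5pb and 16.2% of those of Ndufb5, but 0% for Cox8a and Sdhd. For Uqcr11 it was 10.9% and for Ndufc1 5.25%. Members under 5 CPM in both genotypes had a median of 0%, and the other members 1.65%.

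The isoforms known from other tissues, such as lung, heart, muscle or testis, were at or near 0. Cox7b2, Cox8b and Cox8c had 0 counts in every library. Cox4i2 had 0 or 1 count in each library, and Cox6a2, Cox6b2 and Cox7a1 had 1 to 11. Ndufa4l2, a hypoxia-responsive relative of Ndufa4, had 0 to 5 counts. Apart from Cox8a, which was too low to test, the widely expressed partners were abundant and not called by edgeR. Cox4i1 averaged 154 ± 7.22 CPM in KAT7 mutant and 151 ± 6.78 CPM in wild type neurons (SD, n = 4 and 3). Cox6a1 averaged 97.5 ± 2.86 and 103 ± 9.65 CPM. The 8 members with counts that were not tested were Atp5pb, Cox4i2, Cox6a2, Cox6b2, Cox7a1, Cox8a, Ndufa4l2 and Ndufc1.

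Few members were called between the genotypes. At an adjusted p under 0.05 in the edgeR quasi-likelihood test over all 13681 tested genes, 5 of the 78 tested members were higher and 3 were lower in KAT7 mutant neurons. This is 10.3% of the members, where 28.9% of all tested genes were called. By complex the share was 7.5% in I, 25% in II, 0% in III, 0% in IV and 23.5% in V. Of all tested genes, 13.1% were called higher and 15.8% lower. The median log2 fold change of the members was -0.021, with a middle 50% of -0.074 to 0.044, against a median of 0.003 and a middle 50% of -0.18 to 0.15 over all tested genes. At an unadjusted p under 0.05 there were 9 members (11.5%), against 39.4% of all tested genes. In these bulk libraries, fewer cells of a type and less RNA per cell cannot be told apart.

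The small number of calls was set beside the precision of the fold changes. For 59 of the 78 members (75.6%) the 95% interval of the log2 fold change lay within 0.3 of 0, which is a 1.23-fold difference, whereas this held for 34.9% of all tested genes. Among the genes at or above the members' median CPM it held for 67.7%, and 33.4% of those were called. Members are mostly short genes. Of the 56 tested members up to 1000 bases, 4 (7.14%) were called, against 14.5% of all 1396 tested genes of that length. Of the 22 longer members 18.2% were called, against 30.5% of all longer genes. The values of the 4 KAT7 mutant and the 3 wild type libraries did not overlap in CPM for 14 members, 7 above and 7 below, and 35.3% of all tested genes had no overlap.

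**Figure D2:**
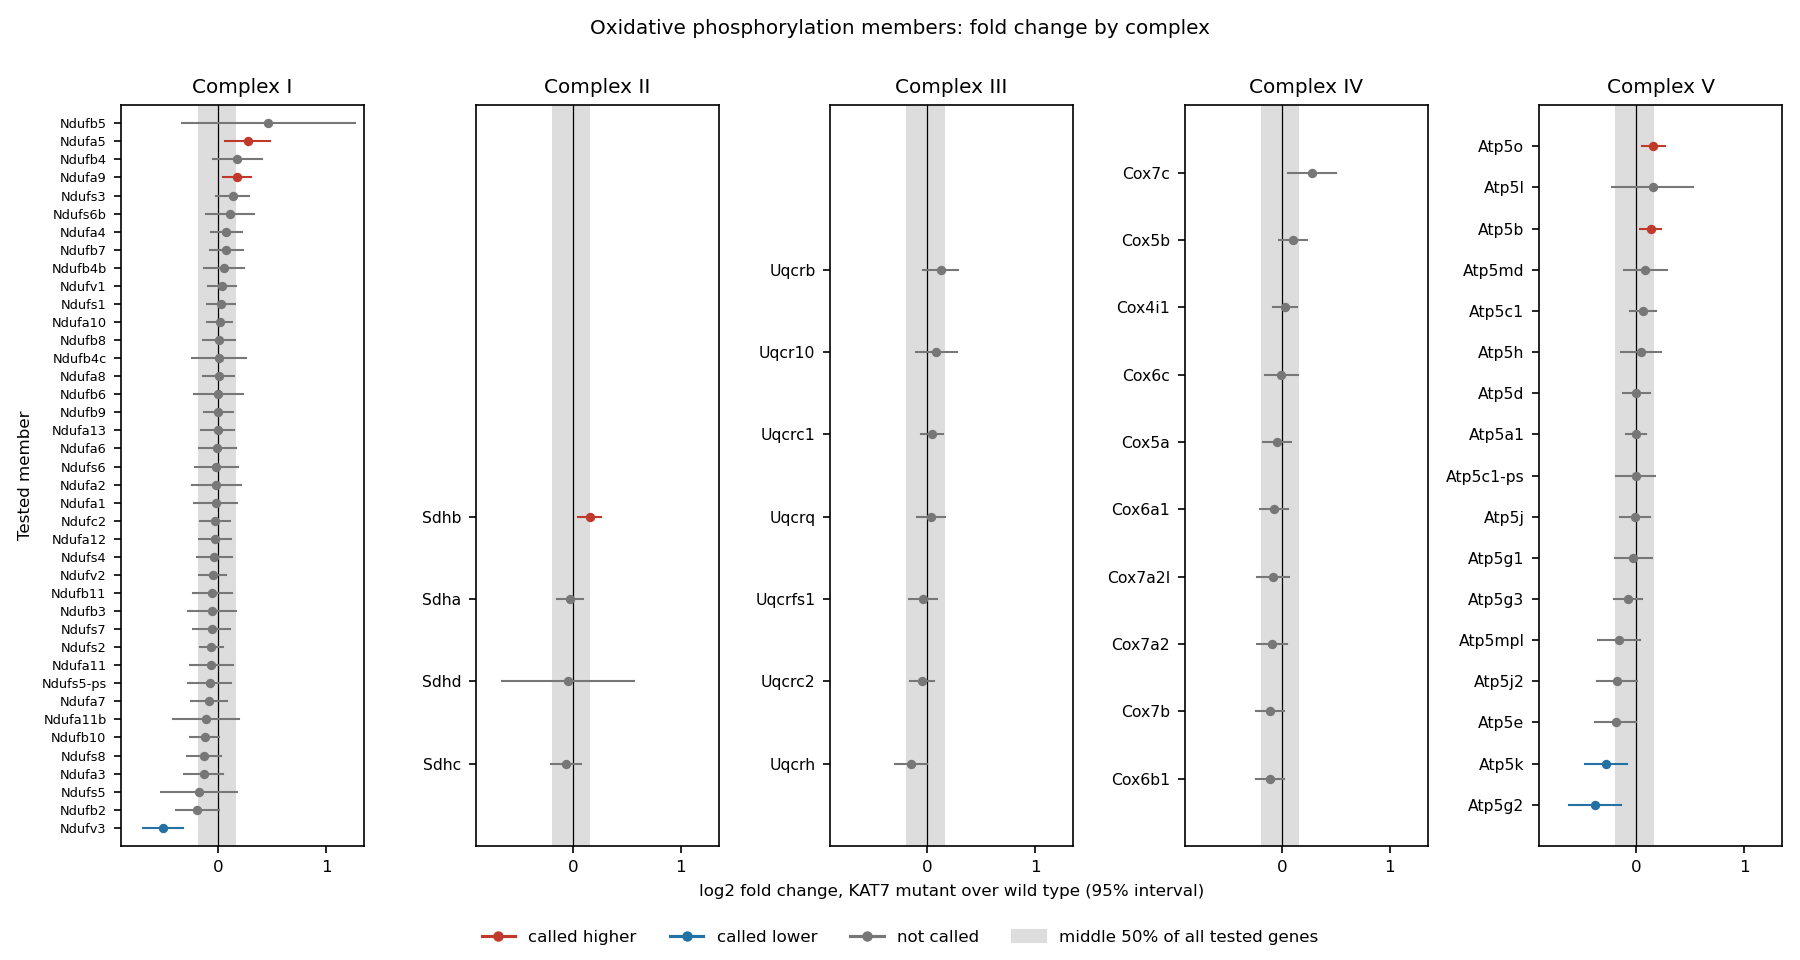
Log2 fold change of each of the 78 tested members, KAT7 mutant over wild type, with its 95% interval, by complex, and the middle 50% of all tested genes in grey. Most members lie inside the grey band, and the calls are 5 higher and 3 lower.

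In the median over members, the KAT7 mutant libraries lay on both sides of the wild type libraries. The median log2 deviation of the tested members from their mean over the 7 libraries was -0.048, 0.041, 0.024 and -0.046 in KAT7 mutant replicates 1 to 4, against 0.032, -0.005 and 0.0004 in wild type replicates 1 to 3. Replicates 1 and 4 of the KAT7 mutant were lowest and replicate 2 highest, so the spread among the mutant animals was larger than the difference between the genotypes.

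**Figure D3:**
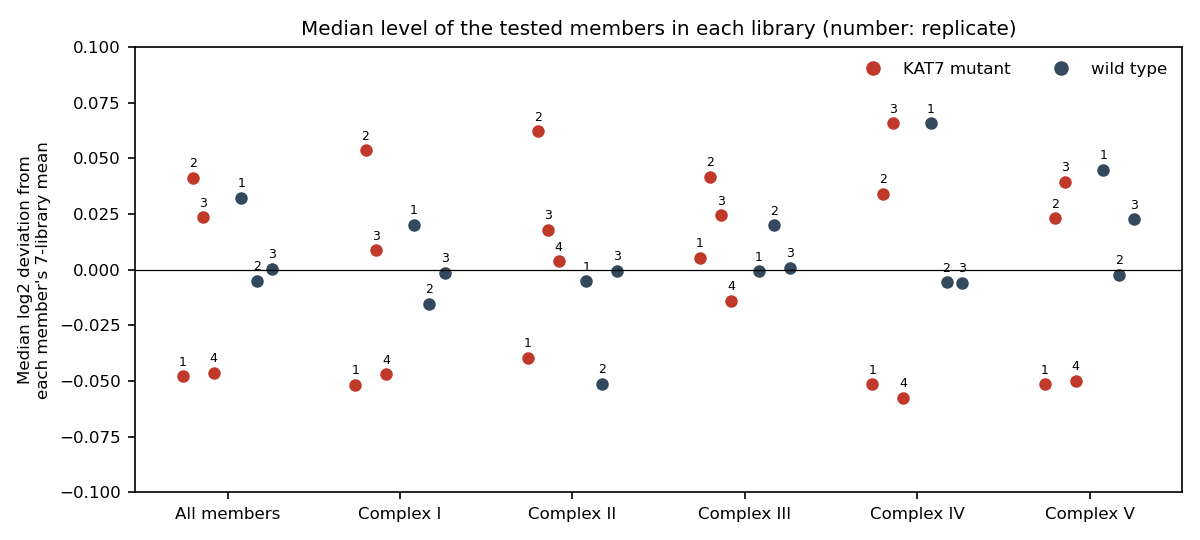
Median log2 deviation of the tested members from each member's mean over the 7 libraries, for all members and for each complex, with 1 point per library and the replicate number above it. KAT7 mutant libraries stand left of wild type libraries, and their ranges overlap in every complex.

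In complex I, the NADH dehydrogenase, 2 of 40 tested members were higher and 1 was lower, with a median log2 fold change of -0.02. That is 7.5% called, against 28.9% of all tested genes. The 7 core subunits, which carry the cofactors from NADH to coenzyme Q, held no call by edgeR, and all 7 had a 95% interval within 0.3 of 0 on the log2 scale. The largest called change of all members was in Ndufv3, a small accessory subunit of the flavoprotein part that binds NADH. Ndufv3 had 253, 274, 227 and 213 counts in KAT7 mutant libraries, against 363, 314 and 383 in wild type libraries, which is 28.5 ± 2.62 CPM against 40.8 ± 4.21 CPM (SD, n = 4 and 3). Every KAT7 mutant library lay below every wild type library. The log2 fold change of Ndufv3 was -0.51 ± 0.09 (SE, edgeR adjusted p = 0.000194), and the call held in each of the 20 alternatives. Those include counting Ndufa4 with complex IV, which leaves the fit unchanged. Ndufv1 is the NADH-binding core subunit beside Ndufv3, and the ratio of Ndufv3 to Ndufv1 within a library was taken in CPM per kilobase. The ratio was 0.467, 0.456, 0.375 and 0.377 in KAT7 mutant replicates 1 to 4, against 0.658, 0.542 and 0.627 in wild type replicates 1 to 3. Ndufv1 itself averaged 68.0 ± 3.52 CPM in KAT7 mutant and 66.6 ± 1.90 CPM in wild type neurons, with a log2 fold change of 0.03 ± 0.06 (edgeR adjusted p = 0.759).

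Ndufa5 and Ndufa9, accessory subunits of the part of complex I that docks coenzyme Q, were higher in KAT7 mutant neurons. Ndufa5 had 26.4, 29.4, 24.0 and 23.8 CPM in KAT7 mutant libraries, against 20.1, 23.2 and 21.2 CPM in wild type libraries. The groups did not overlap, and the log2 fold change was 0.27 ± 0.10 (SE, edgeR adjusted p = 0.045). Ndufa9 had 59.8, 61.9, 60.8 and 56.5 CPM in KAT7 mutant libraries, against 51.2, 53.3 and 54.5 CPM in wild type libraries, again with no overlap, and its log2 fold change was 0.17 ± 0.06 (edgeR adjusted p = 0.0458). Ndufa9 overlaps 1 other gene, 1700018A23Rik, in the annotation, and that gene shared 1.43% of the words of Ndufa9. The calls of Ndufa5 and Ndufa9 both rest on single libraries. The edgeR adjusted p of Ndufa5 was 0.0699 and 0.168 without KAT7 mutant replicate 1 or 2, and 0.162 and 0.116 without wild type replicate 1 or 3. That of Ndufa9 was 0.0632, 0.125 and 0.0907 without KAT7 mutant replicate 1, 2 or 3, and 0.17, 0.109 and 0.0639 without wild type replicate 1, 2 or 3.

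The most abundant complex I members per length were Ndufa4 and Ndufb9, which were not called. Ndufa4 averaged 76.7 ± 6.2 CPM in KAT7 mutant and 72.9 ± 3.35 CPM in wild type neurons, and Ndufb9 averaged 70.6 ± 4.32 and 70.7 ± 3.24 CPM (SD, n = 4 and 3). Ndufa4 was first described in complex I and is now placed with complex IV. Counting it there only moves it between complexes and leaves the fit as it was, so no call could change.

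In complex II, succinate dehydrogenase, 1 of 4 members was higher and none was lower by edgeR, with a median log2 fold change of -0.03. That is 25% called, against 28.9% of all tested genes. Sdhb, the iron-sulphur subunit, had 131, 128, 125 and 125 CPM in KAT7 mutant libraries, against 118, 110.1 and 115 CPM in wild type libraries. The 4 KAT7 mutant values lay above the 3 wild type values, and the log2 fold change was 0.16 ± 0.05 (SE, edgeR adjusted p = 0.0277). Sdha, the flavoprotein subunit that binds succinate, had 140.1, 142, 139 and 123 CPM in KAT7 mutant libraries, against 140.2, 141 and 135 CPM in wild type libraries. The Sdha groups overlapped (log2 fold change -0.03 ± 0.06, edgeR adjusted p = 0.765). The membrane anchor Sdhc averaged 61.5 ± 2.66 CPM in KAT7 mutant and 64.3 ± 4.78 CPM in wild type neurons (edgeR adjusted p = 0.516), and the other anchor, Sdhd, had too few counts for a narrow interval (log2 fold change -0.04, 95% interval -0.65 to 0.57). The edgeR adjusted p of Sdhb was 0.0534 and 0.0667 without KAT7 mutant replicate 1 or 2, and 0.147 and 0.0674 without wild type replicate 2 or 3.

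In complex III, the cytochrome c reductase, edgeR called none of the 7 tested members, and none had an unadjusted p under 0.05. DESeq2 and limma-voom also called none. The median log2 fold change was 0.03, and members ranged from -0.15 to 0.12. Uqcrq, the most abundant per length, had 54.4, 55.5, 53.2 and 54.9 CPM in KAT7 mutant libraries, against 53.9, 54.7 and 51.0 CPM in wild type libraries. Uqcrc2, a core protein that holds the complex together, had 171, 169, 172 and 156 CPM in KAT7 mutant libraries, against 166, 182 and 169 CPM in wild type libraries. The groups of both genes overlapped, and their 95% intervals lay within 0.3 of 0 on the log2 scale.

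In complex IV, cytochrome c oxidase, edgeR and DESeq2 called none of the 10 tested members, limma-voom called 1 higher, and 1 had an unadjusted p under 0.05. The median log2 fold change was -0.06. That member was Cox7c, a small structural subunit, with 22.8, 24.9, 23.0 and 22.7 CPM in KAT7 mutant libraries, against 22.7, 16.8 and 18.2 CPM in wild type libraries. The groups of Cox7c did not overlap, but wild type replicate 1 had nearly the level of the lowest mutant library, and the log2 fold change of 0.28 ± 0.11 missed the threshold (SE, edgeR adjusted p = 0.0502). Sequence shared with other genes, all pseudogenes, covered 27.9% of the words of Cox7c. Cox6b1, the most abundant per length, had 99.9, 117, 119 and 105 CPM in KAT7 mutant libraries, against 123, 118 and 115 CPM in wild type libraries, and was not called (log2 fold change -0.11 ± 0.06, edgeR adjusted p = 0.21). Cox7b averaged 73.6 ± 4.19 and 79.2 ± 3.37 CPM, Cox7a2 53.3 ± 3.27 and 56.7 ± 2.18 CPM, and Cox7a2l 44.2 ± 2.68 and 46.9 ± 1.86 CPM, in KAT7 mutant and wild type neurons in turn (SD, n = 4 and 3), and none of the 3 was called by edgeR, DESeq2 or limma-voom.

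In complex V, the ATP synthase, 2 of 17 tested members were higher and 2 were lower, with a median log2 fold change of -0.01. That is 23.5% called, near the 28.9% of all tested genes. The 2 higher members were 1 of 5 in the catalytic head and 1 of 3 in the stalk that holds it. The 2 lower ones were 1 of 3 genes of the membrane ring and 1 of 5 small membrane subunits. Log2 fold changes ran from -0.19 to 0.13 in the head and from -0.28 to 0.15 in the small membrane subunits. Neither of these 2 parts moved as a whole. In the stalk they ran from -0.01 to 0.16. The 3 genes of the ring all lay below 0, at -0.38 to -0.03, with 1 of them called. Atp5b had 1078, 1091, 1065 and 1001 CPM in KAT7 mutant libraries, against 963, 955 and 977 CPM in wild type libraries. Every KAT7 mutant value lay above the wild type values, and the log2 fold change was 0.13 ± 0.05 (SE, edgeR adjusted p = 0.0323). Its partner in the head, Atp5a1 (the alpha subunit), averaged 538 ± 14.3 CPM in KAT7 mutant and 538 ± 7.00 CPM in wild type neurons, with a log2 fold change of -0.0020 ± 0.04 (edgeR adjusted p = 0.979). Atp5o, the stalk subunit also called OSCP, had 144, 146, 140.5 and 137 CPM in KAT7 mutant libraries, against 125, 129 and 128 CPM in wild type libraries. Its groups did not overlap, and its log2 fold change was 0.16 ± 0.05 (edgeR adjusted p = 0.0216). Sequence shared with other genes covered 34% of the words of Atp5o, so its count is uncertain.

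Leaving out 1 library ended these calls in several cases. The edgeR adjusted p of Atp5b was 0.0685, 0.115 and 0.0516 without KAT7 mutant replicate 1, 2 or 3, and 0.0884, 0.121 and 0.0597 without wild type replicate 1, 2 or 3. That of Atp5o was 0.0756 without KAT7 mutant replicate 2, and 0.0874, 0.0595 and 0.0556 without wild type replicate 1, 2 or 3. Both genes were lowest, within the mutant genotype, in replicate 4.

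The rotating ring of the ATP synthase is built of subunit c, which 3 genes encode as one mature protein. Of these 3, Atp5g2 was lower in KAT7 mutant neurons, with 138, 146, 130 and 103 counts in KAT7 mutant libraries, against 189, 161 and 167 in wild type libraries. These are 15.3 ± 1.88 CPM and 19.9 ± 2.20 CPM (SD, n = 4 and 3), with no overlap, and the log2 fold change was -0.38 ± 0.12 (SE, edgeR adjusted p = 0.017). Atp5g3, the most abundant of the 3, averaged 68.2 ± 3.19 CPM in KAT7 mutant and 71.8 ± 2.81 CPM in wild type neurons, and Atp5g1 27.4 ± 1.11 and 27.9 ± 1.63 CPM. Neither was called by edgeR. Of the CPM per kilobase of the 3 genes together, Atp5g2 made up 16.6%, 16.7%, 14.5% and 12.7% in KAT7 mutant replicates 1 to 4. Its share was 19.6%, 17.3% and 17.8% in wild type replicates 1 to 3. The edgeR adjusted p of Atp5g2 was 0.0617 without KAT7 mutant replicate 4, its lowest library, and 0.103 without wild type replicate 1, its highest. Sequence shared with other genes covered 14.8% of the words of Atp5g2.

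Atp5k, subunit e of the membrane part, which helps ATP synthases pair into dimers, had 161, 168, 161 and 166 counts in KAT7 mutant libraries, against 210, 205 and 197 in wild type libraries. In CPM these were 19.4 ± 0.658 and 23.6 ± 1.33 (SD, n = 4 and 3), with every KAT7 mutant library below every wild type library. The log2 fold change was -0.28 ± 0.09 (SE, edgeR adjusted p = 0.0258), and the adjusted p was 0.1 and 0.0616 without wild type replicate 1 or 2. Atp5e, the epsilon subunit, was next in order of adjusted p among the members after Cox7c, with a log2 fold change of -0.19 ± 0.09 (edgeR adjusted p = 0.132).

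**Figure D4:**
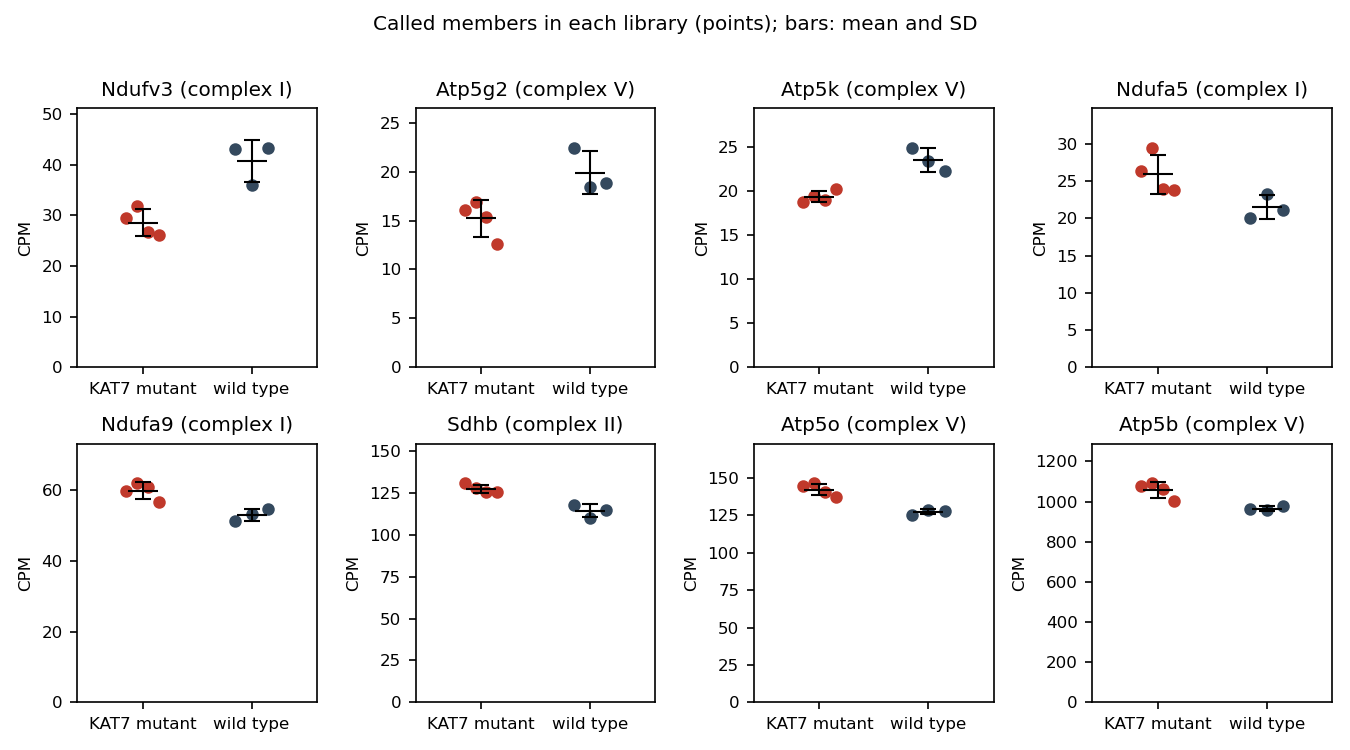
CPM of the 8 called members in each library, KAT7 mutant left and wild type right, with the mean and SD as bars and each axis starting at 0. The groups do not overlap in any of the 8, and the differences in Atp5b, Atp5o, Sdhb and Ndufa9 are small beside the level of the gene.

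Among proteins that work with the complexes but fall outside the symbol patterns, Atpif1, the inhibitor that stops the ATP synthase from running backwards, was lower in KAT7 mutant neurons. Atpif1 had 231, 239.9, 227 and 225 CPM in KAT7 mutant libraries, against 281, 262 and 258 CPM in wild type libraries, with no overlap. Its log2 fold change was -0.21 ± 0.05 (SE, edgeR adjusted p = 0.0028), and the call held without each library in turn. Cyc1, the cytochrome subunit of complex III, averaged 92.7 ± 2.68 CPM in KAT7 mutant and 89.8 ± 0.679 CPM in wild type neurons and was not called. Cycs, which encodes cytochrome c, and Ndufab1, the acyl carrier subunit of complex I, were not called by edgeR either.

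Assembly factors put the subunits together. Of 15 tested factors of complex I, 4 were lower and 1 was higher in KAT7 mutant neurons, a share of 33.3% that is near the 28.9% of all tested genes. Ndufaf2, a late assembly factor, was the largest of the falls, with 124, 132, 109 and 120 counts in KAT7 mutant libraries, against 160, 178 and 190 in wild type libraries, a log2 fold change of -0.50 ± 0.10 (SE, edgeR adjusted p = 0.000999). The other 3 lower ones were Ndufaf7, Ndufaf3 and Ecsit, and the higher one was Tmem186. Leaving out 1 library left 1 to 4 of this list lower, with 1 when wild type replicate 1 was the one, and 0 or 1 higher, and Ndufaf2 kept its call each time. Tmem186 lost its call when KAT7 mutant replicate 3 or 4 was left out (edgeR adjusted p = 0.0792 and 0.0545) and when wild type replicate 1 or 3 was (edgeR adjusted p = 0.0887 and 0.114). Of 13 factors of complexes II, III and V, 2 were higher and 1 was lower (23.1%). Lyrm7, which serves insertion of the Rieske protein into complex III, averaged 18.3 ± 3.95 CPM in KAT7 mutant and 11.3 ± 1.38 CPM in wild type neurons (log2 fold change 0.70 ± 0.15, edgeR adjusted p = 0.00125). Tmem70, an ATP synthase assembly factor, averaged 25 ± 0.411 and 32.8 ± 0.406 CPM (log2 fold change -0.39 ± 0.08, edgeR adjusted p = 0.000687), and both calls held without each library in turn. Atpaf1, which assembles the F1 head, had 15 to 31 counts in each library and a log2 fold change of 0.74 ± 0.24 (edgeR adjusted p = 0.0243). Its adjusted p was 0.0506 and 0.0655 when KAT7 mutant replicate 2 or 3 was left out, and 0.0767 and 0.0902 when wild type replicate 2 or 3 was. Of 22 factors of complex IV, Lrpprc, Cox10 and Sco1 were higher and none was lower by edgeR (13.6%), and leaving out 1 library left 0 to 2 of them.

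Of 16 tested nuclear factors that control respiratory genes, 5 were higher and 1 was lower in KAT7 mutant neurons. This share of 37.5% was not tested against the 28.9% of all tested genes, and leaving out 1 library left 4 to 6 higher and 0 or 1 lower. Esrrg, an orphan nuclear receptor of the ERR group, had 10.5, 11.2, 10.9 and 9.78 CPM in KAT7 mutant libraries, against 4.51, 5.26 and 4.86 CPM in wild type libraries. The groups lay far apart, at a log2 fold change of 1.12 ± 0.14 (SE, edgeR adjusted p = 5.91e-06). Ppargc1a, which encodes the coactivator PGC-1alpha of mitochondrial genes, had 29.1, 35.7, 36.5 and 32.0 CPM in KAT7 mutant libraries, against 22.3, 15.4 and 16.3 CPM in wild type libraries. Its groups did not overlap, and its log2 fold change was 0.89 ± 0.12 (edgeR adjusted p = 8.1e-06). Gabpb1, a subunit of the ETS factor GABP, averaged 68.6 ± 3.32 CPM in KAT7 mutant and 51.6 ± 2.48 CPM in wild type neurons (log2 fold change 0.41 ± 0.07, edgeR adjusted p = 7.42e-05). Calls of these 3 genes held without each library in turn.

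The other higher regulators were Hcfc1 and Gabpa. Hcfc1, a chromatin cofactor, averaged 374 ± 30.8 CPM in KAT7 mutant and 313 ± 0.958 CPM in wild type neurons (log2 fold change 0.26 ± 0.06, edgeR adjusted p = 0.00173). Gabpa, the DNA-binding subunit of GABP, averaged 65.4 ± 3.90 and 57.4 ± 2.66 CPM (log2 fold change 0.19 ± 0.07, edgeR adjusted p = 0.0381). Gabpa overlaps the member Atp5j in the annotation, and without a stated strand setting reads in the overlapping stretch cannot be told apart. Sequence shared with Gabpa and 1 pseudogene covered 16.3% of the words of Atp5j. Nfe2l2, a factor of the oxidative stress response, was lower at 4.82 ± 0.525 CPM in KAT7 mutant and 6.51 ± 0.331 CPM in wild type neurons (log2 fold change -0.43 ± 0.16, edgeR adjusted p = 0.0495), and 6 of the 7 fits that left out 1 library ended its call, with adjusted p-values of 0.0657 to 0.136. Nrf1 averaged 43.8 ± 6.24 CPM in KAT7 mutant and 41.5 ± 2.11 CPM in wild type neurons and was not called (edgeR adjusted p = 0.55). Esrra, another receptor of the ERR group, and Yy1 were not called by edgeR.

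Other mitochondrial gene groups held both directions. Of 74 tested mitochondrial ribosomal proteins, 4 were higher and 4 were lower (10.8%), with a median log2 fold change of -0.016, and leaving out 1 library left 2 to 4 higher and 2 to 4 lower. There were 2 higher without KAT7 mutant replicate 2 or 3 or wild type replicate 1 or 3, and 2 lower without wild type replicate 3. The largest rise was in Mrpl13, at 44.5 ± 3.13 CPM in KAT7 mutant and 30.8 ± 1.76 CPM in wild type neurons (log2 fold change 0.53 ± 0.08, edgeR adjusted p = 3.48e-05). Mrpl54 was also higher and Mrpl34 lower with each library left out. Of 23 genes of the citric acid cycle and pyruvate dehydrogenase, 3 were lower and 1, Mpc1, was higher (17.4%). Leaving out 1 library left 2 to 4 lower and 0 to 2 higher. Pdk2, a kinase that inhibits pyruvate dehydrogenase, averaged 7.79 ± 1.06 CPM in KAT7 mutant and 15.6 ± 1.67 CPM in wild type neurons (log2 fold change -1.01 ± 0.13, edgeR adjusted p = 8.27e-06). Pdha1, the catalytic E1 subunit of that enzyme complex, averaged 115 ± 3.64 and 134 ± 2.03 CPM (log2 fold change -0.21 ± 0.05, edgeR adjusted p = 0.00379), and Idh3a was the other lower gene. Pdk2 and Pdha1 kept their calls without each library in turn. Mpc1 lost its call when KAT7 mutant replicate 2 was left out (edgeR adjusted p = 0.0899) and when wild type replicate 2 or 3 was (0.0558 and 0.152), and Idh3a when KAT7 mutant replicate 4 was left out (0.0901) and when wild type replicate 1 or 3 was (0.074 and 0.0983).

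Of 12 coenzyme Q genes, Coq8b and Coq10b were lower and Coq7 was higher (25%). Coq10b kept its call without each library in turn, and Coq8b and Coq7 lost theirs without wild type replicate 1 (edgeR adjusted p = 0.0876 and 0.146). Of 16 genes of mitochondrial DNA maintenance and transcription, 1, Mterf3, was higher, and leaving out 1 library left 0 or 1. Of 20 protein import genes, edgeR, DESeq2 and limma-voom called none, and 2 had an unadjusted p under 0.05. Of 54 cytosolic ribosomal proteins, which are short and abundant like the subunits, 4 were higher and 1 was lower (9.26%). Leaving out 1 library left 1 to 5 higher, with 1 when wild type replicate 2 was the one, and 0 or 1 lower, and of those named by rule Rps26 kept its call each time.

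**Figure D5:**
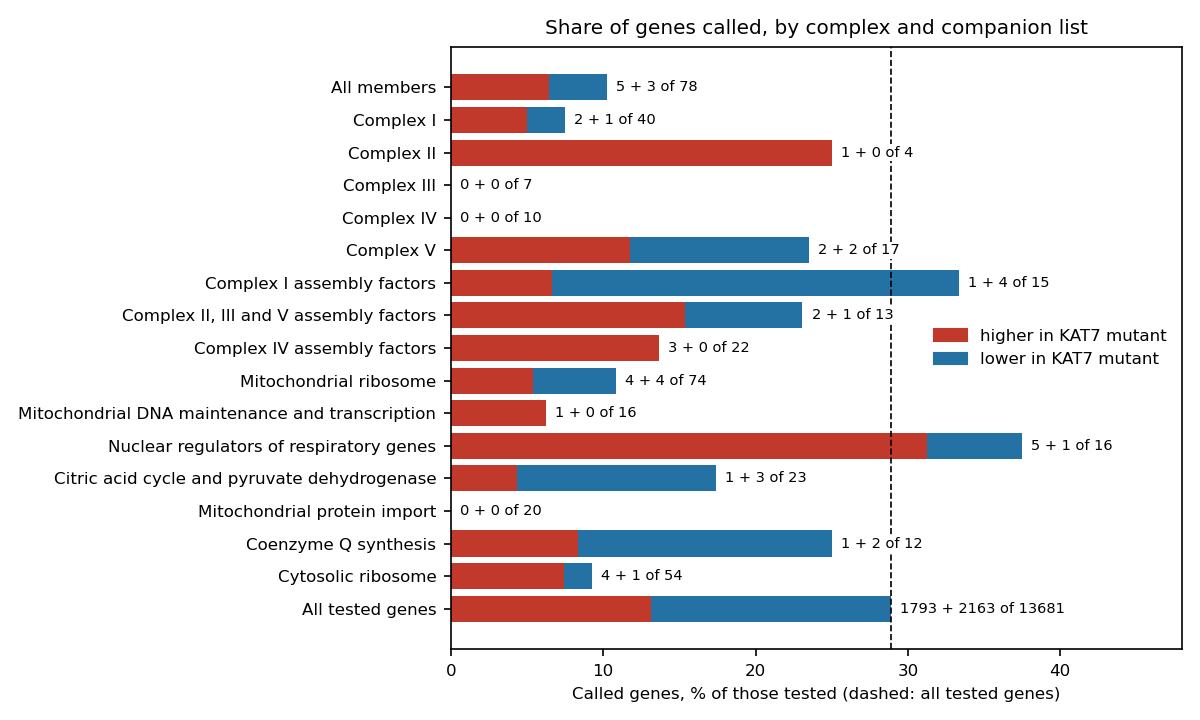
Share of tested genes called in the edgeR test, in percent, for the members, each complex, related gene lists and all tested genes (dashed line at 28.9%), split into higher and lower in KAT7 mutant. The members at 10.3%, the mitochondrial ribosome at 10.8% and the cytosolic ribosome at 9.26% lie below the line, and the regulators are at 37.5%, a difference from all genes that was not tested.

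Markers of several cell types were called in the same libraries, in part in both directions, where 28.9% of all tested genes were called. Of 12 neuron markers, all were detected, 4 were higher and 3 were lower. Their summed level was 11202 to 11928 CPM in KAT7 mutant and 12215 to 12996 CPM in wild type libraries, a sum in which abundant markers weigh most. Their median log2 fold change was -0.01, with a range from -2.02 in Stmn2 to 0.51 in Tbr1. Of 9 tested radial glia and progenitor markers, 7 were lower and none was higher by edgeR. Their sums were 267 to 301 CPM in KAT7 mutant and 340.1 to 387 CPM in wild type libraries. Leaving out 1 library left 5 or 6 of them lower, DESeq2 called 4 lower and limma-voom 7. Of 6 astrocyte and oligodendrocyte lineage markers 4 were higher and 1 lower (17.4 to 35.9 CPM and 14.1 to 22.8 CPM). Of 7 interneuron markers 4 were higher and 1, Sst, lower (322 to 439 CPM and 253 to 408 CPM), and the sums of both lists overlapped between the genotypes. Leaving out 1 library left 3 or 4 higher and 1 lower in the first list, and 3 to 5 higher and 0 or 1 lower in the interneuron list. Of 7 microglia markers 4 were higher, with sums of 35.1 to 45.8 CPM in KAT7 mutant and 26.0 to 32.1 CPM in wild type libraries, though P2ry12 and Tmem119 were too low to test, and 2 were higher without KAT7 mutant replicate 3 or 4 or wild type replicate 1. Of 6 endothelial and mural markers, 2 were lower, a share of 33.3% near that of all genes (16.7 to 20.1 CPM and 22.9 to 24.3 CPM). Of 5 red blood cell genes edgeR and DESeq2 called none, limma-voom called 2 higher, 1 had an unadjusted p under 0.05, and edgeR called all 5 higher without wild type replicate 1. Their sum varied within genotypes, at 64.8 to 202 CPM in KAT7 mutant and 26.0 to 159 CPM in wild type libraries. Of 2 tested muscle and heart markers 1, Ttn, was higher (10.6 to 13.2 CPM and 10.1 to 10.7 CPM), and none without KAT7 mutant replicate 2 or 4 or wild type replicate 2 or 3. The part of these shifts in the values of the members was not tested.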

How the data were processed

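The authors deposited 1 table of raw read counts for 7 polyA RNA-seq libraries, with Entrez identifiers and gene lengths. Per the submitters' processing notes, featureCounts was used and the build was mm9. No aligner, annotation release or strand setting is named in the sources used here. Symbols came from an NCBI gene table and matched 24176 of 26286 identifiers. The members and gene lists were chosen with earlier results of these data known.

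Genes were filtered with filterByExpr (minimum count 10), scaled with TMM factors (0.9894 to 1.01) and tested with the quasi-likelihood test of edgeR 4.0.16 in R 4.3.3, two-sided, with genotype as the only term and Benjamini-Hochberg adjustment over all 13681 genes. Fold changes are KAT7 mutant over wild type on a log2 scale. For CPM, each count was divided by the TMM-adjusted library size. The test was checked on simulated data. The words of 50 bases shared between genes were counted in GENCODE transcripts of release M21, and promoters came from RefSeq (GRCm38.p6). Alternatives used DESeq2 1.42.0, limma 3.58.1 and other settings.

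Named by rule were Kat7, the 2 most abundant members per length and up to 4 called members per direction of each complex, complex II, the isoform groups, untested members, and up to 3 called genes per direction of each list. Genes outside that rule, such as Ndufv1, Ndufb5, Cox7c, Atp5e, Hcfc1, Gabpa and Nrf1, were chosen after their values were seen. Replicate numbers of the genotypes did not pair the libraries (correlations -0.0337 to 0.0244). No 2 libraries of a genotype agreed within counting noise.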

Additional observations from a re-analysis of the deposited data

Results flagged for a closer look

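Within the 4 KAT7 mutant libraries, 31 values were examined for a library far from the others, and 2 stood out. The limit used would flag about 1 in 20 independent values by chance. The 31 values come from the same libraries and are not independent, and the cause of the 2 flags was not tested. Kat7 was at 1.22 CPM in KAT7 mutant replicate 4 (10 counts), whereas the other mutant libraries were at 0.351 to 0.464 CPM, and wild type libraries were at 96.6 to 103 CPM. The members of complex II took 0.0309% of the counts in KAT7 mutant replicate 4 and 0.0328% to 0.0332% in the other mutant libraries. Wild type libraries had 0.0316% to 0.0324%.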

How the results depend on the processing

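Under 20 alternatives the share of members called was 1.28% to 11.5% and was below that of all genes (18.8% to 29.4%) each time. The members' median log2 fold change was -0.044 to 0.006. Among these alternatives, counting Ndufa4 with complex IV leaves the fit unchanged and so is no check of these values. Members called higher numbered 2 with library size only, 3 with DESeq2 and 0 at an adjusted p under 0.01, which also gave 1034 higher among all genes and 1 lower member. Complex I had 0 higher with library size only, DESeq2 or the 0.01 threshold, and 1 with upper-quartile factors or no count filter. Complex II had 0 higher with no count filter or the 0.01 threshold and a median log2 fold change of 0.0081 with limma-voom, and complex III a median of 0.060 with the gene length trend removed. Complex IV had 1 higher with RLE factors, no count filter, limma-voom, the robust fit, the length trend removed or red blood cell genes left out. Complex V had 1 higher with library size only and 0 at the 0.01 threshold, and 1 lower with DESeq2 and 0 at the 0.01 threshold. With the replicate number as a block, 7 members and 24.9% of all genes were called, complex V had 1 lower, and Atp5g2 lost its call, although same-numbered libraries shared only a number (correlations -0.0337 to 0.0244).

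Without 1 library each, members called higher were 0 to 5 and lower 1 to 3, with a median log2 fold change of -0.044 to -0.0060. Higher calls were 0 to 2 in complex I, 0 to 1 in complex II, 0 to 1 in complex IV and 0 to 2 in complex V, with 0 to 2 lower in complex V. Medians were -0.045 to -0.0017 in complex I, -0.066 to 0.076 in complex II, 0.0057 to 0.042 in complex III, -0.100 to -0.030 in complex IV and -0.046 to 0.010 in complex V. Among all genes 1273 to 1776 were higher and 1826 to 2212 lower. The cause of these shifts was not tested.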
